A study of Mus musculus with 7 samples.

Results

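The genes of the mitochondrial respiratory chain were compared between wound-edge tissue of MFG-E8 KO and MFG-E8 WT mice. They were taken as the probe sets annotated to exactly 1 symbol that starts with Ndufa, Ndufb, Ndufc, Ndufs, Ndufv, Sdh, Uqcr, Cox4i, Cox5, Cox6, Cox7, Cox8 or Atp5. This gave 185 of 45037 probe sets, for 94 of 18193 genes with a symbol of their own, and 10 further probe sets that name several genes were left out. By name the 94 genes fall into 36 subunits of complex I, 4 of complex II, 8 of complex III, 10 of complex IV and 17 of complex V. A further 12 are assembly factors, 3 are the muscle isoforms Cox6a2, Cox7a1 and Cox8b, and 4 are other tissue isoforms of complex IV. The mice were C57BL/6, and tissue from the wound edge at day 5 (d5 in the labels) was profiled. The control genotype, MFG-E8 WT, was represented by 3 animals, numbered 2, 3 and 4. The MFG-E8 KO genotype was represented by 4, numbered 8, 10, 11 and 12. Each animal gave 1 array of total RNA. How the Mfge8 gene was disrupted, and the age and sex of the mice, are not given in the sources used here. Mfge8 encodes a secreted protein that bridges dying cells to phagocytes.

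The respiratory chain passes electrons from NADH and succinate through complexes I and II, ubiquinone, complex III, cytochrome c and complex IV to oxygen. Complexes I, III and IV pump protons across the inner mitochondrial membrane, and complex V, the ATP synthase, uses the gradient to make ATP. Most subunits are encoded in the nucleus and expressed in nearly every cell, but complex IV also has isoforms of a few small subunits that are restricted to striated muscle, testis or other tissues. Mouse skin lies on a thin sheet of striated muscle, the panniculus carnosus.

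The deposited values are on a log scale, taken as log2, and 1 baseline per probe set had been subtracted from them, so they carry differences between animals and no expression levels. How finely each stored number was rounded gives back a rough level. For 82 of the 94 genes the best probe set lay at 8 or above on the log2 scale, for 10 between 4 and 8, and for 2 between 2 and 4. Mfge8 itself, the check of the genotype labels, was at 0.915, 0.765 and 0.996 in WT animals 2, 3 and 4 and at -0.644, -0.956, -1.14 and -1.30 in KO animals 8, 10, 11 and 12. The labels name wound-edge tissue, and all 14 keratinocyte markers had a recovered level of 8 or above. Mfge8 fell by 1.90 on the log2 scale (SE 0.16, limma adjusted p = 0.0169), and the KO animals lay below every WT animal. Of the 7 fits without 1 animal, 6 ended that call, with adjusted p from 0.0522 to 0.203; only without KO animal 8 did it hold (0.0185).

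No respiratory chain gene passed the test between genotypes. At an adjusted p under 0.05 (limma, Benjamini-Hochberg over all genes), 0 of 94 genes were called, where 0.0275% of all genes were, and the smallest adjusted p was 0.464. Among single probe sets 0 of 185 were called, where 0.0444% of all were. At an unadjusted p under 0.05, 3 of the 94 genes (3.19%) were lower in KO, against 5.95% of all genes, and 0 were higher, against 2.26%. In both directions together 8.21% of all genes reached that p. Of the 185 probe sets, 6 were lower at that p (5.22% of all probe sets were) and 0 higher (2.18%). The 3 genes were the muscle isoforms Cox7a1 and Cox8b and the complex II anchor Sdhd. All KO animals lay below all WT animals in 3 genes (3.19%, against 5.15% of all genes) and above them in 1 (1.06%, against 3.31%). Each of these gene shares was below the background over all genes, but rests on at most 3 genes and does not set the members apart. Among all genes at a level of 8 or above, 586 of 7591 were lower at an unadjusted p under 0.05 (limma).

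**Figure D1:**
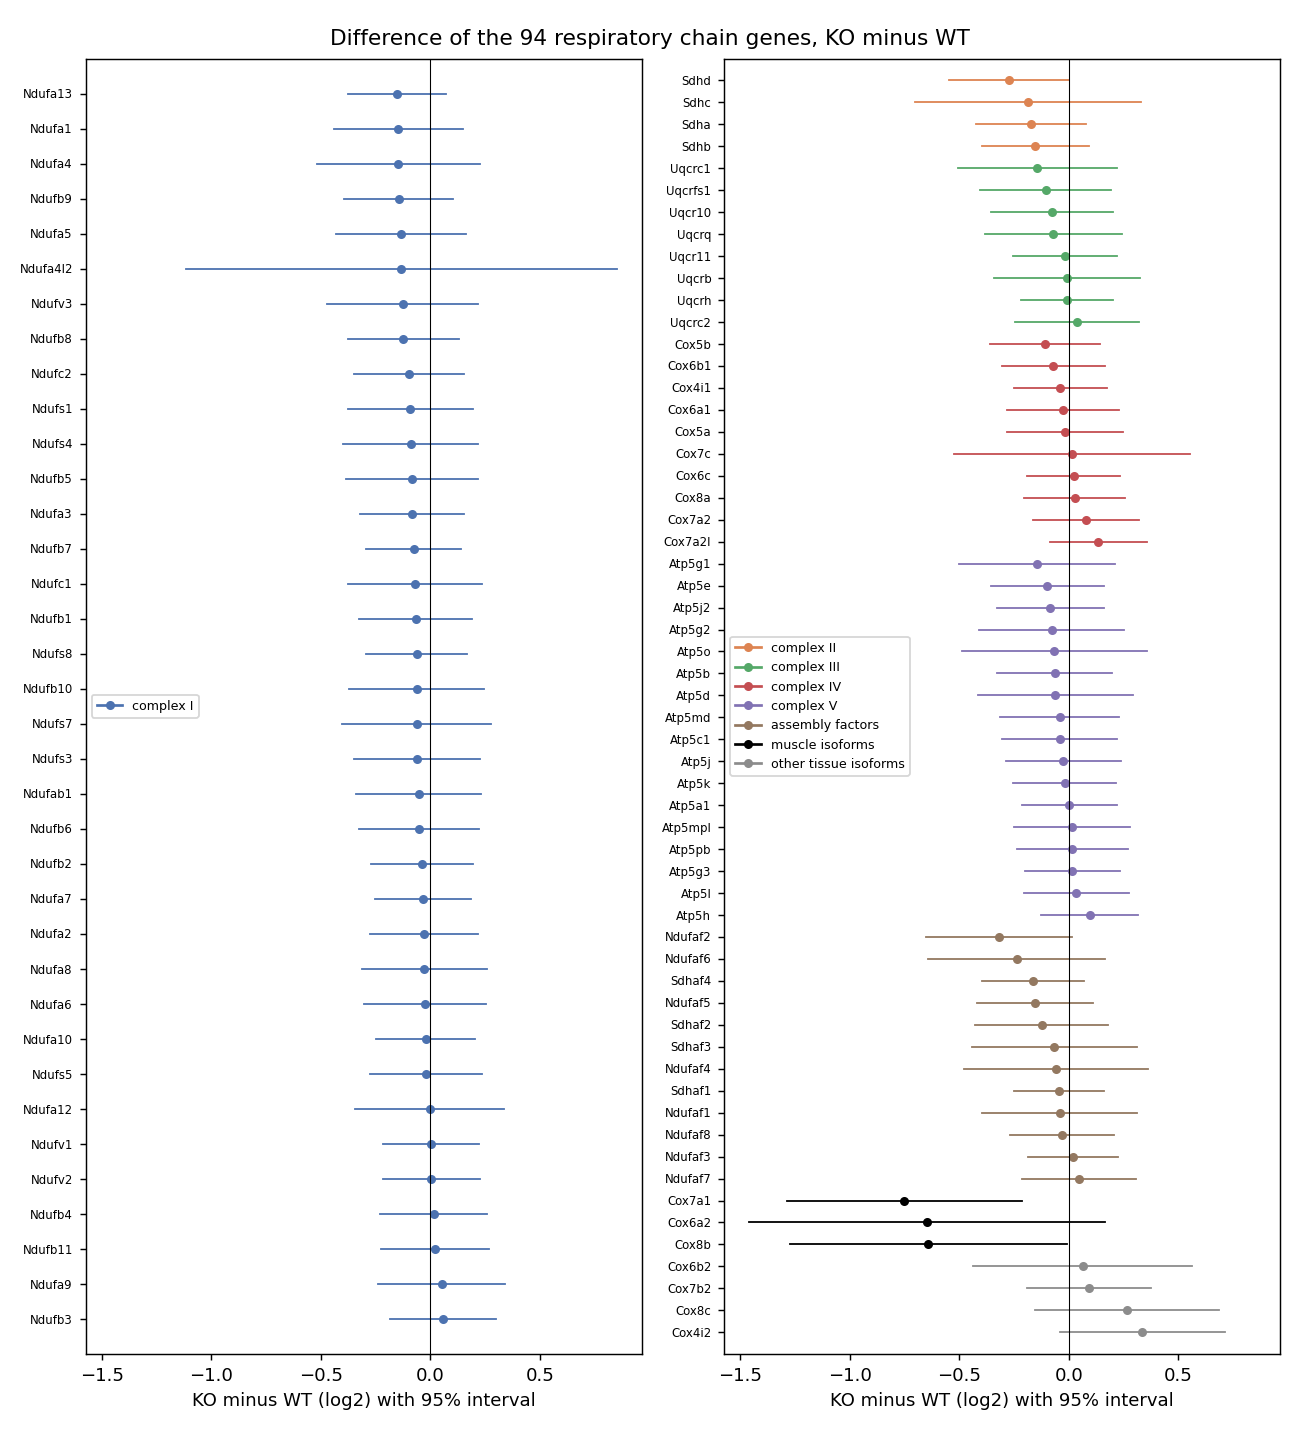
Difference between KO (n = 4) and WT (n = 3) on the log2 scale for each of the 94 genes, coloured by complex or class; points are limma estimates and lines their 95% intervals. Complexes I, III, IV and V cluster near 0. The 4 genes of complex II lie at log2 -0.27 to -0.15 and the 3 muscle isoforms at log2 -0.75 to -0.64.

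For the 75 subunits outside the tissue isoforms the differences were small. The median was log2 -0.054, against 0.004 over all genes and -0.033 over all genes at a level of 8 or above. By gene the largest difference was that of Sdhd, 1.21-fold lower in KO. Single probe sets could differ more. A probe set of Ndufa12 at a lower recovered level gave log2 -0.55 (limma adjusted p = 0.557), and its other probe sets lay between log2 -0.018 and 0.017. In 58 of the 75 the difference was under 0.1 on the log2 scale, as it was in 8007 of all 18193 genes. In 68 (90.7%) the 95% interval lay within 0.5 on either side of 0, which is 1.41-fold, against 58.3% of all genes. The other subunits were Sdhc, Sdhd, Uqcrc1, Ndufa4, Ndufa4l2, Cox7c and Atp5g1. Ndufa4 is counted with complex I by its name, although the protein is now placed in complex IV. The median residual SD of these subunits was 0.123, against 0.190 over all genes at a level of 8 or above. The KO mean lay within the range of the WT animals in 64 of the 75, a count that was not made over all genes.

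In 69 of these 75 subunits the difference between genotypes was smaller than the range of the WT animals. This count was not made over all genes either, so it describes the spread and does not set the subunits apart. WT animal 4 held the highest value of all 7 animals in 52 of the 75 subunits, and WT animal 2 or KO animal 8 held the lowest in 26 and 34. Over all genes, not matched for level, these animals took such places in 15.4%, 11.4% and 23.5%. The mean over the 75 subunits was -0.093, -0.006 and 0.153 in WT animals 2, 3 and 4 and -0.123, -0.018, -0.017 and 0.024 in KO animals 8, 10, 11 and 12. The WT animals therefore bracketed 3 of the 4 KO animals. RNA quality and the number of mitochondria per cell were not measured, and the part they play was not tested.

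**Figure D2:**
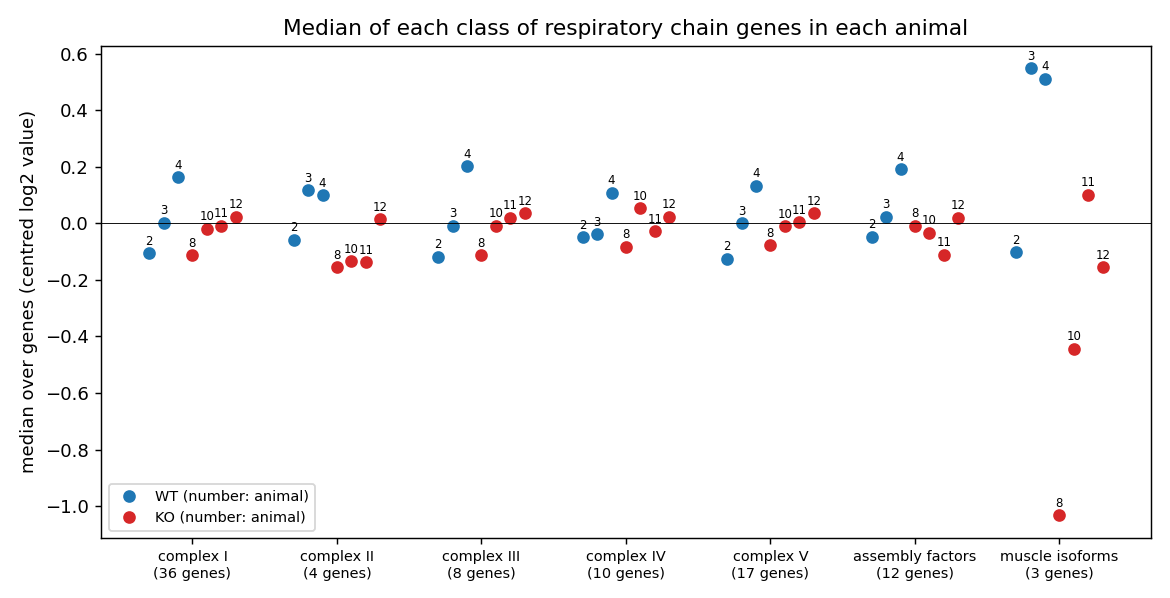
Median centred log2 value over the genes of each class in each animal; blue points are WT, red points are KO, and the small numbers name the animals. WT animal 4 is the highest and WT animal 2 or KO animal 8 the lowest in complexes I, III and V, and the muscle isoforms spread over a wider range than any complex.

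Complex I oxidises NADH and has the most subunits. Of its 36 genes 30 were lower in KO, by a median of log2 -0.062, and 0 reached an unadjusted p under 0.05. Among all genes 49.1% were lower, and among all genes at a level of 8 or above 58.1%. The median was 0.015 without WT animal 4 and log2 -0.011 without KO animal 8. The 6 measured core subunits differed by less than 0.1 on the log2 scale. Ndufv1, which binds NADH and the flavin, was at log2 0.002 (95% interval -0.22 to 0.22). Its neighbour Ndufv2 was at log2 0.004, and the core subunits Ndufs1, Ndufs3, Ndufs7 and Ndufs8 lay between log2 -0.092 and -0.061. For these 6 core genes the intervals ran from -0.40 to 0.28 at most, with limma adjusted p from 0.889 to 0.998.

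Among the accessory subunits, Ndufa13 (chosen after its values were seen) was the 1 member of complex I whose groups did not overlap. It was at 0.004, 0.226 and 0.112 in WT animals 2, 3 and 4 and at -0.122, -0.004, -0.013 and -0.020 in KO animals 8, 10, 11 and 12. WT animal 2 and KO animal 10 nearly touched, and the difference of log2 -0.15 did not pass (limma adjusted p = 0.732). Of all genes, 5.15% had every KO animal below every WT animal. Ndufa4l2, a hypoxia-induced relative of Ndufa4 that the naming rule brings in, varied most. It ranged from -0.682 to 0.301 in WT and from -1.40 to 0.331 in KO, with a difference of log2 -0.13 (95% interval -1.12 to 0.85). KO animal 8 was the low extreme.

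Complex II, succinate dehydrogenase, links the citric acid cycle to the chain and has only 4 subunits. All of these were lower in KO, with the lowest median of the 5 complexes (log2 -0.18), and the range over 20 alternatives was log2 -0.25 to -0.12. By animal the complex II medians overlapped, from -0.058 to 0.117 in WT and from -0.156 to 0.015 in KO. Sdhd, a membrane anchor, was at -0.028, 0.204 and 0.205 in WT animals 2, 3 and 4 and at -0.224, -0.299, -0.095 and 0.028 in KO animals 8, 10, 11 and 12. The difference was log2 -0.27 (SE 0.12, limma adjusted p = 0.608), and WT animal 2 lay below KO animal 12. Its second probe set, at a lower recovered level, gave log2 -0.29.

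The other anchor, Sdhc, was at -0.084, -0.039 and 0.052 in WT and at -0.847, -0.148, 0.057 and 0.102 in KO animals 8, 10, 11 and 12. KO animal 8 alone set the Sdhc difference: it was log2 -0.19 with that animal and 0.027 without it. Both Sdhc probe sets were low in this animal, at -0.68 and -1.01. The flavoprotein Sdha, which holds the active site, was at log2 -0.17 (95% interval -0.42 to 0.077). The differences of all its probe sets spread over log2 0.43. The iron-sulphur subunit Sdhb was at log2 -0.15 (95% interval -0.40 to 0.091). Neither passed, with limma adjusted p of 0.731 and 0.758.

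KO animal 8 was also low in other subunits. In 7 of the 75, picked after their values were seen, it lay more than 0.2 below every other animal: Sdhc, Ndufa4l2, Uqcrc1 (-0.508), Ndufv3 (-0.491), Atp5d (-0.414), Ndufs7 (-0.375) and Ndufa1 (-0.356). Over all genes it was the lowest animal in 23.5%, and the share with such a gap was not counted. Whether the 7 are more than that share is therefore unknown. The same animal had the lowest skeletal muscle marker mean (-1.13) and keratinocyte marker mean (-0.63) of all 7. Whether these move together for 1 reason was not tested.

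Complex III hands electrons from ubiquinol to cytochrome c. Its 8 genes had a median difference of log2 -0.044 and none reached an unadjusted p under 0.05. The core protein Uqcrc1 was at log2 -0.14 (95% interval -0.51 to 0.22) and at log2 -0.028 without KO animal 8. Its partner Uqcrc2 was at log2 0.039, and the Rieske iron-sulphur protein Uqcrfs1 at log2 -0.11. In complex V 0 genes reached it either. Its 17 genes had a median of log2 -0.041 and a range of log2 -0.14 to 0.095. The catalytic subunits Atp5a1 and Atp5b were at log2 0.003 and -0.064. Single probe sets at a lower recovered level differed more, at log2 -0.26 for Atp5g1 and Atp5j2 and log2 0.27 for Atp5a1. Those of Atp5g1 and Atp5j2 reached an unadjusted p under 0.05, as 5.22% of all probe sets did in this direction. None of the 3 passed adjustment (limma adjusted p from 0.666 to 0.824). The sign of the medians of complexes III and V turned without WT animal 4 (log2 0.035 and 0.044).

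Complex IV, cytochrome c oxidase, reduces oxygen. Its 10 widely expressed subunits were evenly split, 5 lower and 5 higher, with a median of log2 -0.001. After quantile normalization the median was log2 0.027, so no direction can be given. Cox4i1 was at log2 -0.039, Cox5a at log2 -0.018 and Cox5b at log2 -0.11. The 6 probe sets of Cox5b ranged from log2 -0.15 to 0.085. Cox7a2l was the highest of the 10 (log2 0.14, chosen after its values were seen). The counterparts of the muscle isoforms were at log2 -0.027 (Cox6a1), 0.079 (Cox7a2) and 0.026 (Cox8a), with 95% intervals between -0.28 and 0.32.

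The muscle isoforms had larger differences than these counterparts, and none passed. Cox7a1 was at 0.051, 0.731 and 0.513 in WT animals 2, 3 and 4 and at -0.849, -0.253, -0.051 and -0.121 in KO animals 8, 10, 11 and 12. Every KO animal lay below every WT animal, as in 5.15% of all genes, though WT animal 2 and KO animal 11 were close. The difference was log2 -0.75 (SE 0.23, 1.68-fold lower, limma adjusted p = 0.464).

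Cox8b was at -0.102, 0.549 and 0.327 in WT and at -1.03, -0.444, 0.102 and -0.154 in KO. Here WT animal 2 lay among the KO animals. The difference was log2 -0.64 (SE 0.27, limma adjusted p = 0.604). Cox6a2 was at -0.484, 0.525 and 0.538 in WT and at -1.04, -0.773, 0.163 and -0.163 in KO, with the same overlap. Its difference was log2 -0.65 (SE 0.35, limma adjusted p = 0.698), and a second probe set at a lower recovered level gave log2 -0.90.

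**Figure D3:**
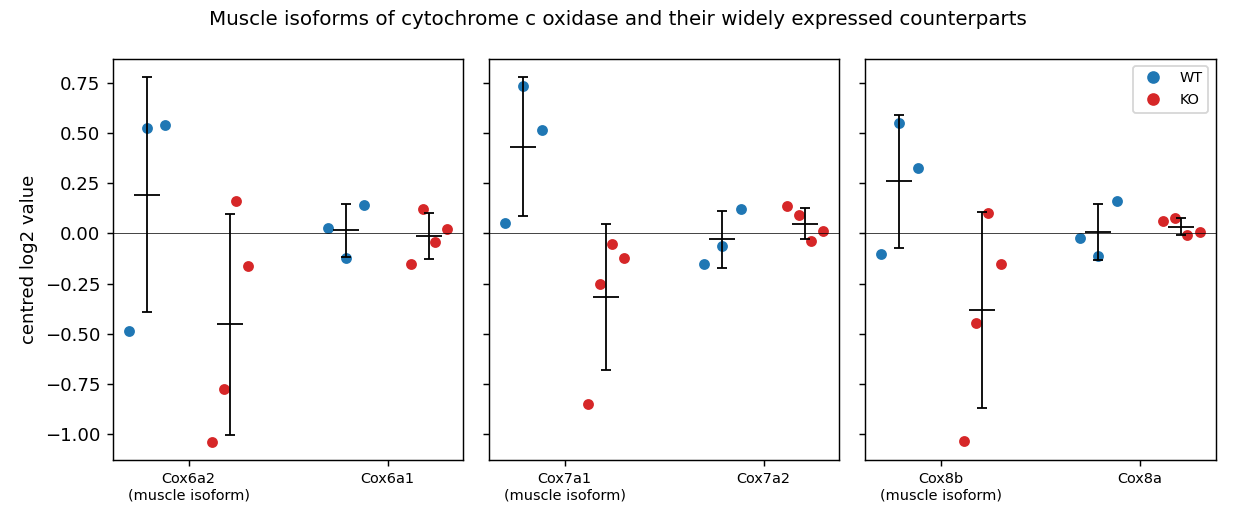
Centred log2 values of the 3 muscle isoforms of cytochrome c oxidase and of their widely expressed counterparts; points are animals (blue WT, n = 3; red KO, n = 4), horizontal ticks are means and bars 1 SD. The muscle isoforms spread from -1.04 to 0.73 and the counterparts stay between -0.15 and 0.16.

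Set against its counterpart in the same animal, each muscle isoform was lower in KO. In the 3 WT animals Cox7a1 minus Cox7a2 came to log2 0.46 ± 0.30 (SD), and in the 4 KO animals to log2 -0.37 ± 0.43 (SD). For Cox6a2 minus Cox6a1 the WT animals gave log2 0.18 ± 0.61 (SD) and the KO animals log2 -0.44 ± 0.54 (SD). For Cox8b minus Cox8a they gave log2 0.25 ± 0.38 (SD) and log2 -0.42 ± 0.52 (SD). Only the first pair was without overlap between genotypes, and since the values are centred, these ratios compare animals and not the abundance of one isoform with that of the other.

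All 3 muscle isoforms lie on chromosome 7, as does Mfge8. The 7 other members on that chromosome, among them Uqcrc2, lay between log2 -0.098 and 0.064. In the 250 bases before the RefSeq start (GRCm38.p6), 5 sequences are shown: Cox7a1 with its counterpart Cox7a2, Cox8b with its counterpart Cox8a, and Cox6a1, the counterpart of Cox6a2. They set isoforms with larger differences between genotypes beside counterparts with small ones. Capitals mark matches, on either strand, to an NRF1-type site (GCGCA, any base, then GCGC), an ETS core (CCGGAAG), a myogenic E-box (CAGCTG), a MEF2-type site (CTA, any 4 bases, then TAG) or a TATA box (TATAAA). None of these motifs overlap in the sequences shown. Cox7a1 is at chr7:30183921-30184170 on the plus strand. On the minus strand, Cox7a2 is at chr9:79759854-79760103, Cox8b at chr7:140900447-140900696, Cox8a at chr19:7217617-7217866 and Cox6a1 at chr5:115348959-115349208.
Cox7a1: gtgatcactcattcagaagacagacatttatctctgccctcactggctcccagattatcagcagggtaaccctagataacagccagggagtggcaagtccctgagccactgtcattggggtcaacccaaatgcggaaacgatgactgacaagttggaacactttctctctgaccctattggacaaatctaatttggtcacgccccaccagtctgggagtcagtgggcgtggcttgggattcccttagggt
Cox7a2: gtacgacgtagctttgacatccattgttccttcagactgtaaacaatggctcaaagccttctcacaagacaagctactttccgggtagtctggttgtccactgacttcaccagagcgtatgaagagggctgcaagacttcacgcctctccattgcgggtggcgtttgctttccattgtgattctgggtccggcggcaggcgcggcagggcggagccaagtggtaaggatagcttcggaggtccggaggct
Cox8b: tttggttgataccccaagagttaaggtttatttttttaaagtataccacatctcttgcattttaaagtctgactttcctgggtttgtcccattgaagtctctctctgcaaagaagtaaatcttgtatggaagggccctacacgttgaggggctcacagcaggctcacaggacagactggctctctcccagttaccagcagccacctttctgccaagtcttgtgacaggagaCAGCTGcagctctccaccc
Cox8a: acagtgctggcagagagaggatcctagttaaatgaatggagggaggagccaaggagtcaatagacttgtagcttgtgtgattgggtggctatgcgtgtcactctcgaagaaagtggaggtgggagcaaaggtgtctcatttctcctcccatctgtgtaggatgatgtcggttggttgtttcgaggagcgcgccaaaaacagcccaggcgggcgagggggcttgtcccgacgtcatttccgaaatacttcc
Cox6a1: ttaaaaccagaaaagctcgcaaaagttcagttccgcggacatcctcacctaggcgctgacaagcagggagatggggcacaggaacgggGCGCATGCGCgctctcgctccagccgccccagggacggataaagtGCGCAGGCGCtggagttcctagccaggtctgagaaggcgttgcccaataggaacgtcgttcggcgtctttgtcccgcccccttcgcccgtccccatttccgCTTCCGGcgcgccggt

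Cox7a1, Cox7a2 and Cox8a held none of the 5 motifs in these windows. Cox8b held 1 myogenic E-box, the motif of muscle transcription factors, so the NRF1-type site and the ETS core set neither of these isoforms apart from its counterpart. Cox6a1 held 2 NRF1-type sites and 1 ETS core, motifs named for regulators of respiratory genes. Over the promoters of the subunits outside the tissue isoforms (68 promoters of 63 genes), 17.6% held the NRF1-type site and 17.6% the ETS core. Among all 32851 promoters in the RefSeq table these shares were 3.74% and 6.91%. The myogenic E-box was in 7.35% of the subunit promoters and in 13.0% of all, the MEF2-type site in 1.47% and 3.20%, and the TATA box in 10.3% and 12.4%. In all, 78 of the 94 genes had a promoter in that table.

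Skeletal muscle markers moved with the muscle isoforms. All 26 measured markers of muscle fibres were lower in KO, with a median of log2 -0.64, and 24 of them had a recovered level of 8 or above. Of the 26 markers, 2 reached an unadjusted p under 0.05, where 5.95% of all genes were lower at that p, and 0 passed adjustment. They were Ampd1, the AMP deaminase of muscle (log2 -1.03, limma adjusted p = 0.573), and the myosin light chain Myl1 (log2 -0.54, limma adjusted p = 0.579). The mean over the 26 markers was -0.245, 0.565 and 0.147 in WT animals 2, 3 and 4 and -1.13, -0.668, -0.014 and -0.009 in KO animals 8, 10, 11 and 12. The mean over the 3 isoforms was -0.178, 0.602 and 0.459 in WT and -0.973, -0.490, 0.071 and -0.146 in KO. Both orders put WT animals 3 and 4 on top, KO animals 11 and 12 next, then WT animal 2, then KO animals 10 and 8.

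When the fit included the muscle marker mean, Cox6a2 was at log2 -0.013 and Cox8b at log2 -0.13. Cox7a1 kept log2 -0.34 (limma adjusted p = 0.641). With the hair follicle marker mean in the fit instead, Cox6a2 was at log2 -0.20, Cox8b at log2 -0.33 and Cox7a1 at log2 -0.53. Both covariates gave smaller differences than the fit without them, and the muscle mean gave the smallest. KO animals 8 and 10 were lowest in the muscle mean and highest in the hair mean, and the reason for the smaller differences was not tested. Without KO animals 8 and 10 together, Cox7a1 was at log2 -0.52, Cox8b at log2 -0.28 and Cox6a2 at log2 -0.19. In whole tissue, fewer muscle fibres in the sample and less RNA of these genes per fibre cannot be told apart. Whether other cells of the tissue, such as adipocytes, contributed to these RNAs was not tested.

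**Figure D4:**
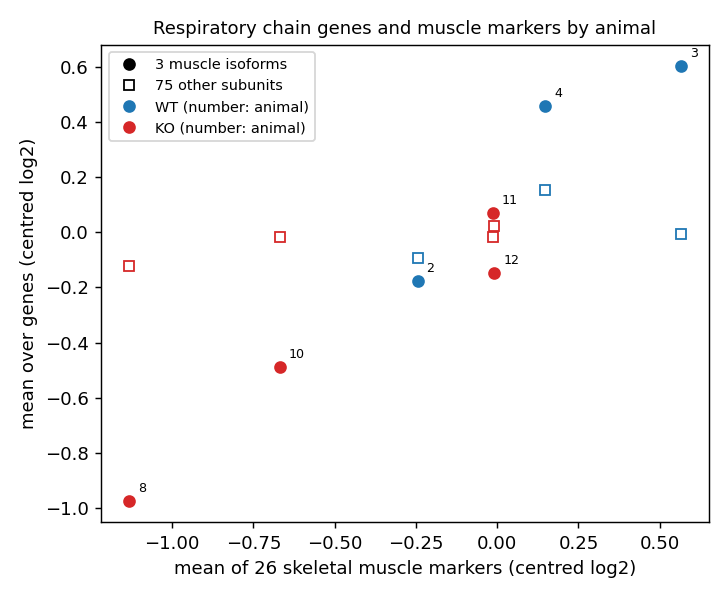
Mean over the 3 muscle isoforms (filled circles) and over the 75 other subunits (open squares) against the mean of 26 skeletal muscle markers, in each of 7 animals; all are centred log2 values, blue for WT and red for KO, and numbers name the animals. The isoforms run from -0.97 to 0.60 along with the markers, and the other subunits stay between -0.12 and 0.15.

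Markers of other cells also had differences between genotypes, and 0 of them passed adjustment. All 20 hair follicle markers were higher in KO (median log2 2.41), and 0 reached an unadjusted p under 0.05. Their mean was 0.769, -1.64 and -2.77 in WT animals 2, 3 and 4 and 3.98, 4.01, -2.46 and -0.838 in KO animals 8, 10, 11 and 12, so KO animals 8 and 10 were high and the groups overlapped. All 7 endothelial markers were lower in KO, each at an unadjusted p under 0.05 (5.95% of all genes were) and 0 after adjustment. Their median was log2 -0.78, with means of 0.126 to 0.676 in WT and -0.548 to -0.117 in KO. All 7 fibroblast, 8 macrophage and 5 neutrophil markers were lower, by medians of log2 -0.43, -0.37 and -0.45. Keratinocyte markers, 8 of 14 lower, had a median of log2 -0.053, adipocyte markers, 7 of 10 lower, one of log2 -0.22, and sebocyte markers, 3 of 5 lower, one of log2 -0.031. Their part in the small differences of the widely expressed subunits was not tested.

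The other tissue isoforms of complex IV were all higher in KO. Cox4i2, an isoform induced by low oxygen, was at -0.020, -0.122 and -0.064 in WT animals 2, 3 and 4 and at 0.020, 0.367, 0.037 and 0.643 in KO animals 8, 10, 11 and 12. It was the 1 member with all KO animals above all WT animals, as in 3.31% of all genes. The difference of log2 0.34 did not pass (SE 0.16, limma adjusted p = 0.653). Cox8c (log2 0.27), Cox7b2 (log2 0.092) and Cox6b2 (log2 0.064), known from testis, did not pass either. None of the 4 had a recovered level of 8 or above.

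Assembly factors help to build the complexes and leave them when done. Of 12 measured 10 were lower in KO, with a median of log2 -0.063 that ran from log2 -0.137 without WT animal 2 to log2 -0.003 without WT animal 4, and 0 reached an unadjusted p under 0.05. The lowest was Ndufaf2, a complex I factor related to Ndufa12, at log2 -0.32 (95% interval -0.65 to 0.016). Sdhaf4, a factor for Sdha, had every KO animal below every WT animal, as in 5.15% of all genes. Its difference was log2 -0.16 (limma adjusted p = 0.727). Both were chosen after their values were seen. Of 24 further assembly factors that the naming rule does not cover, 17 were lower (median log2 -0.082). Among them the complex I factor Tmem126b (log2 -0.32, adjusted p = 0.473 by limma) and the copper chaperone Cox17 (log2 -0.24, adjusted p = 0.591) reached an unadjusted p under 0.05. Of all genes 5.95% were lower at that p.

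No gene of the other mitochondrial lists passed the adjusted test either. Of 15 genes of the citric acid cycle and pyruvate dehydrogenase 11 were lower (median log2 -0.091), and 0 reached an unadjusted p under 0.05. Of 12 carriers and transporters 6 were lower (median log2 -0.012). Slc25a4, the ADP/ATP translocase of heart and muscle, was at log2 -0.31 (limma adjusted p = 0.544). Its KO animals lay below every WT animal, as in 5.15% of all genes. The widely expressed relative Slc25a5 was at log2 0.24 (limma adjusted p = 0.675). Of 14 genes of mitochondrial biogenesis and DNA maintenance 6 were lower (median log2 0.030). The orphan receptor Esrra, which drives respiratory genes, was at log2 -0.30 (limma adjusted p = 0.501), the coactivator Ppargc1a at log2 0.085, Nrf1 at log2 -0.096 and the mitochondrial DNA factor Tfam at log2 0.054.

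Of 11 genes of fatty acid oxidation 9 were higher (median log2 0.083), 2 of them at an unadjusted p under 0.05, where 2.26% of all genes were higher. Acaa2, the last enzyme of the oxidation cycle, was at -0.262, -0.312 and -0.127 in WT and at 0.217, 0.024, 0.156 and 0.278 in KO animals 8, 10, 11 and 12. All KO animals lay above all WT animals, as in 3.31% of all genes. The difference was log2 0.40 (SE 0.10), and the gene did not pass (limma adjusted p = 0.373). Cpt1a, which admits fatty acids to the mitochondrion, was at log2 0.33 (adjusted p = 0.593).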

How the data were processed

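Biotin-labelled RNA from 7 animals was hybridised to 1-colour arrays, per the labels' protocols. The authors deposited values that the submitters' processing notes trace to GCRMA (log2 assumed); its version and further steps are not given in the sources used here. A baseline per probe set had been subtracted: 72.5% of probe sets hold adjacent middle values at equal distance on both sides of 0 (tolerance 1e-06). Array medians ranged from -0.0042 to 0.0121. The number of arrays limits the precision. The p-values set the difference between genotypes against a residual spread that eBayes moderates over all genes. With 1 array per animal, that spread holds animal and array variation together.

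Of 45101 probe sets 64 controls were left out. Of the rest 34945 name 1 gene, 932 several and 9160 none, and all 94 member genes were matched by Entrez ID to the RefSeq table of GRCm38.p6. The level came from the rounding step of the stored values (the band was right for 97.7% of simulated probe sets). A gene's value is the mean over its probe sets in the highest recovered band (2 to 4, 4 to 8, or 8 and above). KO minus WT, SE and 95% intervals came from limma 3.58.1 (lmFit, eBayes; R 4.3.3) over all 18193 genes or 45037 probe sets, unpaired and without covariates, with Benjamini-Hochberg adjustment and a threshold of 0.05. The pipeline was tested on simulated data. Plots and tables used Python 3.11.15, pandas 2.3.3, numpy 2.4.6 and matplotlib 3.10.9.

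Members, gene lists and tests were chosen with earlier results of these data known. Named genes are Mfge8, passing members (there were 0), the muscle isoforms with their counterparts, Cox4i1 and Cox4i2, core subunits of each complex, per class up to 3 genes a direction with unadjusted p under 0.05, genes whose probe sets differ by over log2 1 (0 did), and up to 3 genes per list with the smallest p. Genes beyond this rule were chosen after their values were seen. Alternatives were quantile normalization, array medians subtracted, robust or band-trended eBayes, array weights, fewer probe sets, all probe sets averaged, level filters, muscle or hair marker means as covariates, no chromosome 7 genes, and fits without 1 animal or without KO animals 8 and 10.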

Additional observations from a re-analysis of the deposited data

Results flagged for a closer look

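Among 33 results tested for 1 KO animal far from the other 3 (Dixon's ratio above 0.829), 2 were singled out, and chance singles out about 1 in 20 such groups. Ndufv1 was at -0.020 in KO animal 12 and between 0.022 and 0.026 in the other 3, a gap smaller than the WT spread. The median of complex II was 0.015 in KO animal 12 and between -0.156 and -0.134 in the other 3.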

How the results depend on the processing

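Under 20 alternatives no respiratory chain gene or probe set passed an adjusted p of 0.05 (limma); the number lower at an unadjusted p under 0.05, 3 in the report, was 1 at a recovered level of at least 8, with the hair follicle mean as a covariate or without chromosome 7 genes, 0 with the muscle marker mean as a covariate, and 0 to 5 without 1 animal (0 without WT animal 3, 1 without WT animal 4 or KO animal 10, 2 without KO animal 8, 4 without KO animal 12, 5 without WT animal 2). The number higher, 0 in the report, was 1 with array weights, where KO animal 10 had a weight of 3.38, and 0 to 1 without 1 animal (1 without KO animal 8 or 11). The muscle isoform median was log2 -0.13 with the muscle marker covariate, had no value without chromosome 7 genes, and was otherwise between log2 -0.94 and -0.28. The medians of complexes I, III, IV and V changed sign under at least 3 alternatives each. Among these were the fit without WT animal 4 and those with the muscle or hair covariate. The median of complex II stayed below 0 under all 20, which reuse the same animals. By animal the genotypes overlapped in it, with WT animal 2 at -0.058 and KO animal 12 at 0.015. The assembly factor median ran from log2 -0.137 without WT animal 2 to log2 -0.003 without WT animal 4. Mfge8 was at log2 -2.06 after quantile normalization (adjusted p = 0.0676), without its call, and between log2 -2.03 and -1.81 without 1 animal; over 18 alternatives its adjusted p ran from 0.00341 to 0.203. No paired analysis was possible because the animal numbers of the genotypes differ. Signal over background is unknown, since the table holds no levels.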

Other observations

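Part of the pattern by animal in the respiratory chain, with WT animal 4 high and WT animal 2 low, was also present in other mitochondrial lists. WT animal 4 also had the highest median over all genes at a level of 8 or above (0.044). There WT animal 2 was at 0.015 and KO animal 11 was lowest (-0.074), so the high place of WT animal 4 is not particular to mitochondrial genes. The 76 measured genes of the mitochondrial ribosome had means of -0.087, -0.018 and 0.191 in WT animals 2, 3 and 4 and of 0.013, 0.016, -0.070 and 0.035 in KO animals 8, 10, 11 and 12. Their median difference was log2 -0.013, and 46 were lower in KO. Mrpl33, a protein of the large subunit, was the 1 gene at an unadjusted p under 0.05 (log2 -0.31, limma adjusted p = 0.501), where 5.95% of all genes were lower. The 15 genes of the citric acid cycle and pyruvate dehydrogenase had means of -0.160, 0.024 and 0.224 in WT and of -0.056, -0.080, -0.099 and 0.069 in KO. In both lists WT animal 4 was highest and WT animal 2 lowest, as in complex V, whereas KO animal 8, the lowest in complex I, was not the lowest here. The fatty acid oxidation genes differed: KO animal 12 had the highest mean (0.228), and WT animals 2 and 3 had the lowest (-0.139 each).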
